A study of Homo sapiens with 15 samples.

Results

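The 9 laminin chains measured in MDA-MB-231 cells were LAMA1 to LAMA5, LAMB1 to LAMB3 and LAMC1, taken by gene symbol from a table of 18858 genes. MDA-MB-231 is an established human breast adenocarcinoma line. The Control cells were not transfected, and the siControl cells received a pool of control siRNAs. The siYAP cells received siRNAs to YAP1, the siTAZ cells siRNAs to WWTR1, which encodes TAZ, and the siYAP+TAZ cells both of these pools. The genotype is labelled WT in the Control and siControl groups and as the respective knockdown in the others. Knockdown lasted 48 h, after which the cells were replated on gelatin for 5 to 6 h before RNA extraction. RNA was sequenced in 3 libraries per group. The Control libraries carry the numbers 16, 21 and 26, those of siControl 17, 22 and 27, those of siYAP 18, 23 and 28, those of siTAZ 19, 24 and 29, and those of siYAP+TAZ 20, 25 and 30. Values are given below in this order. The knockdowns are transient and in 1 cell line. Each pool was used at the same concentration, so the siYAP+TAZ cells received a larger total amount of siRNA. This amount and the knockdown of both genes cannot be told apart. The study describes the RNA sequencing as independent sets of experiments, but which libraries form a set is given neither there nor in the labels. Each of the runs of library numbers 16 to 20, 21 to 25 and 26 to 30 holds every group once.

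Laminins are large cross-shaped glycoproteins of the basement membrane, each a trimer of an alpha, a beta and a gamma chain joined through a coiled coil. The alpha chain carries the globular domains that bind integrins, dystroglycan and the Lutheran glycoprotein BCAM, and the alpha chain largely sets which receptor a laminin engages. LAMA3 and LAMB3 are chains of the laminin that anchors stratified epithelia through hemidesmosomes, while LAMA5 pairs with LAMB1 or LAMB2 and LAMC1 in most adult epithelial and vascular basement membranes. YAP and TAZ are transcriptional co-activators of the Hippo pathway that act mainly through TEAD factors, and the study asked what their loss does in cells that degrade a gelatin matrix.

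Total counts per library lay between 18696737 and 30107312. YAP1 RNA, in TMM-normalized counts, was 4431, 4333 and 4202 in siControl, 1013, 2764 and 761 in siYAP and 2240.2, 2202 and 1796 in siYAP+TAZ. WWTR1 RNA was 1995, 1850.2 and 1579 in siControl, 828, 254 and 521 in siTAZ and 1133, 1123 and 1284 in siYAP+TAZ. The targeted RNA was thus lower than in every siControl library in each targeted library, although with edgeR only WWTR1 in siTAZ passed the test (adjusted p = 0.0187, against 0.0992 for YAP1 in siYAP, 0.0723 for YAP1 and 0.199 for WWTR1 in siYAP+TAZ). All 8 listed YAP/TAZ targets fell in siYAP+TAZ, where 18.4% of all genes passed in either direction, led by ANKRD1 (log2 fold change -1.36, adjusted p = 0.0233) and the secreted matricellular protein CCN1 (-1.17, 8.37e-06). The markers of the line VIM, CD44, CAV1 and AXL were abundant, with a summed level, SPARC included, of 100836 to 107868 in siControl and 87356 to 95685 in siYAP+TAZ, whereas SPARC itself, also listed as present, stayed at 13.6 to 35.9 normalized counts in all libraries. Of the markers of other cell types, the 4 measured fibroblast markers summed to 316 to 547 in siControl and 654 to 795 in siYAP+TAZ, the 2 endothelial ones to 151 to 195 and 211 to 279, and the 2 leukocyte ones to 18.2 to 23.1 and 36.7 to 45.2. Of these, 1 in each list rose (PDGFRB, PECAM1 and CD14) and the rest did not pass, while COL3A1, DCN, PDGFRA, CDH5, VWF, TEK and CD3E were not analysed here. The 4 measured luminal markers, KRT8 and KRT18 among them, summed to 29867 to 31892 in siControl and 26883 to 34044 in siYAP+TAZ, the 2 measured basal ones to 20.4 to 28.9 and 20.2 to 57.1, and none of them passed. In bulk RNA, fewer cells of a type and less RNA per cell cannot be told apart, and the part of these markers in the laminin values was not tested. Libraries 26 to 30 stood apart for some chains. LAMA1, LAMA3 and LAMA4 were lowest in this run of numbers in 5 of 5 groups, LAMB3 and LAMC1 were lowest there in 4 of 5, and LAMA5 was highest there in 4 of 5, so the main results are also given without these libraries. How many of all genes share such an order was not counted. Leaving out libraries 26 to 30 was chosen after seeing the data, removes part of the spread of these chains and leaves 2 libraries per group. Its adjusted p-values are thus not a separate test of the chains.

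The chains differ in the sequence upstream of their start sites. RefSeq promoters (build GRCh38.p14) were found for 8 of the 9 chains, all but LAMA1. The 250 bases before the start are printed for LAMA5, LAMA3 and LAMC1, the chains that rose in siYAP+TAZ, and for LAMB3, the most abundant chain. Both strands were searched for CATTCC, the core of the TEAD motif, and for TGANTCA, the AP-1 motif, which reads the same on both strands. Capitals mark matches, and no match of one motif overlapped a match of the other. CATTCC or its reverse complement GGAATG occurs in 11.9% of all 35116 promoter windows of this length, and TGANTCA in 6.57%.
LAMA5 (chr20:62367313-62367562, minus strand): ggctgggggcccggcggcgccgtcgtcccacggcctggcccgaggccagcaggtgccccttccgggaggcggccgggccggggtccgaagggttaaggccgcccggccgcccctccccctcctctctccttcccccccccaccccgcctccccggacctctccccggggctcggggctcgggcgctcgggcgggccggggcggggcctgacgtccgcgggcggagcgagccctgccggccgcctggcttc
LAMC1 (chr1:183023170-183023419, plus strand): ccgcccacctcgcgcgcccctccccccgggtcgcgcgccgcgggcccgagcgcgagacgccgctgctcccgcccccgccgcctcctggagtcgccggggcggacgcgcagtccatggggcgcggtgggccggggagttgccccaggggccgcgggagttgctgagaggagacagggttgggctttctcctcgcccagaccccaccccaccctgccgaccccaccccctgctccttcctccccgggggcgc
LAMA3 (chr18:23872770-23873019, plus strand): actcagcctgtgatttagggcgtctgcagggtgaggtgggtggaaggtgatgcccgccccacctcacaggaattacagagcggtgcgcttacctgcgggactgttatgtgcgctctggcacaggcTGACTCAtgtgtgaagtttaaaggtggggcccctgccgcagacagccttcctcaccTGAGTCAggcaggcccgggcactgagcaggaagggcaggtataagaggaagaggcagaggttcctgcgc
LAMB3 (chr1:209651375-209651624, minus strand): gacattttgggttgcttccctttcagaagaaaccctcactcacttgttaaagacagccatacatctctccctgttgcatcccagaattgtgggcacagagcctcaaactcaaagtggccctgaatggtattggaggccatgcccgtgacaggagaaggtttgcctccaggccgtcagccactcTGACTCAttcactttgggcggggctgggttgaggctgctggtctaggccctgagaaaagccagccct
The LAMA5 and LAMC1 windows were 82.8% and 79.6% G or C and held neither motif. The LAMA3 window lies before an internal start site, 183567 bases downstream of the start of the longest annotated form, and held 2 AP-1 matches, whose first bases are 125 and 69 bases before that start. The LAMB3 window, 1 of 3 RefSeq starts for this gene, lies before a start 1051 bases downstream of that of the canonical transcript. It held 1 AP-1 match 67 bases before its start. The windows of the other 2 starts, that of the canonical transcript among them, held neither motif. Among the remaining chains only LAMA2 had a TEAD match, 167 bases before its start. LAMA4, LAMB1 and LAMB2 had neither. A match describes the letters in the window and does not show that a factor binds there.

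The RNA of the chains spanned a wide range of levels, led by the beta chains LAMB3 and LAMB2. Levels between genes are compared as normalized counts per kilobase (kb) of the longest coding transcript. In siControl, LAMB3, the beta chain of the hemidesmosomal laminin, stood at 4536 ± 126 per kb (SD, n = 3). LAMB2, the beta chain found at synapses and in the kidney filter, followed at 1139 ± 35.97. LAMC1, the gamma chain of most laminins, had 834 ± 26.8 per kb and LAMA5 had 709 ± 98.8. LAMB1, the widely made beta chain, was at 568 ± 35.5 per kb. These were followed after a step by LAMA3 at 73.5 ± 4.82 per kb, LAMA4, an alpha chain of vessel walls and fat, at 25.7 ± 6.33, LAMA1, the embryonic alpha chain, at 5.76 ± 3.001, and LAMA2, the alpha chain of muscle, at 1.84 ± 0.186. The siControl libraries of neighbours in this order did not overlap, with the exception of LAMC1 and LAMA5. In siYAP+TAZ the order changed at 1 place, with LAMA5 at 1320 ± 149 per kb above LAMC1 at 1073 ± 83.1, and the LAMA5 libraries then overlapped those of LAMB2 at 1416 ± 55.7. By all annotated exons the LAMA5 and LAMC1 libraries overlapped in siYAP+TAZ, at 1055 ± 119 and 1007 ± 78.0 per kb. LAMA1 at 3.39 ± 1.47 and LAMA2 at 2.24 ± 0.719 per kb of the coding transcript overlapped in siYAP+TAZ as well. Dividing by all annotated exons instead lowered LAMB1 from 568 to 172 per kb in siControl, because its annotated exons sum to 18.6 kb against 5.65 kb for the coding transcript, and moved the other chains less. LAMA2 was the only chain with a mean under 20 normalized counts, between 12 and 32 raw counts in all libraries, and LAMA1 ranged from 6 to 90 raw counts, so neither can show any but large differences.

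**Figure D1:**
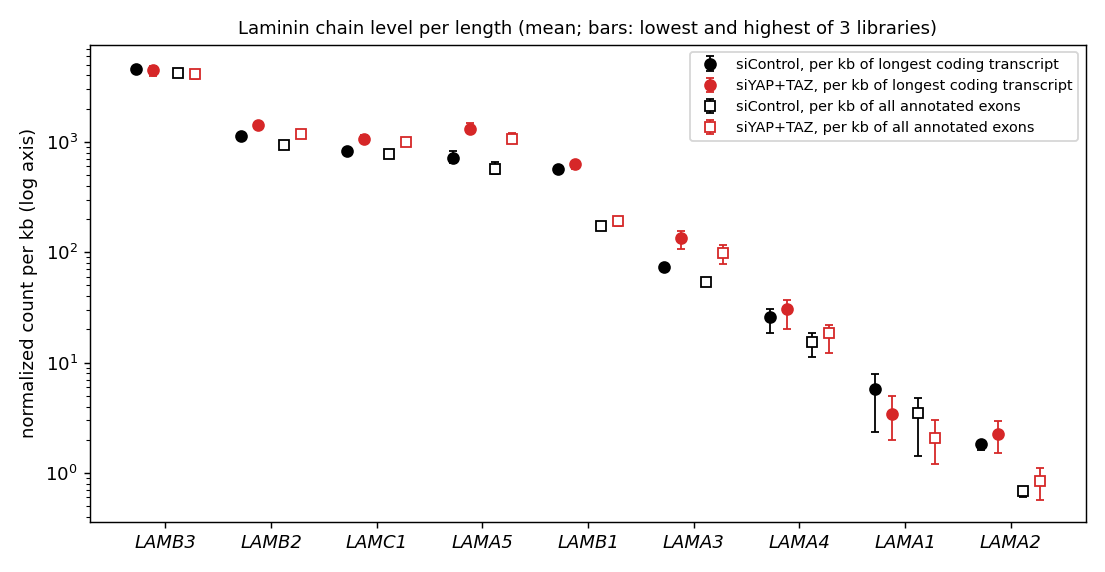
Normalized counts per kb on a log axis for the 9 chains in siControl (black) and siYAP+TAZ (red), per kb of the longest coding transcript (circles) and per kb of all annotated exons (squares); points are means and bars run from the lowest to the highest of 3 libraries. LAMB3 is highest at 4536 per kb in siControl and LAMA2 lowest at 1.84 on the coding scale, and LAMB1 is the chain most changed by the choice of length.

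After co-knockdown, 3 of the 9 chains rose against siControl and none fell at an adjusted p of at most 0.05 (edgeR, no block of library runs). With the block these 3 also passed and LAMA1 fell, where 28.6% of all genes passed. These were LAMA5 and LAMA3, a pair of alpha chains, and the gamma chain LAMC1. Of all genes, 18.4% passed in either direction and 9.97% passed as higher. No chain also reached an absolute log2 fold change of 1, which 3.46% of all genes did, and DESeq2 and limma-voom likewise gave 0 chains at both thresholds and 3 at the adjusted p alone. The same 3 chains had an unadjusted p under 0.05 with edgeR, as did 30.3% of all genes. In 4 chains (LAMA3, LAMA5, LAMB2 and LAMC1) all 3 siYAP+TAZ libraries were above all siControl libraries, as in 18.2% of all genes. The median log2 fold change of the 9 chains was 0.30, against -0.0048 over all 18858 genes.

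**Figure D2:**
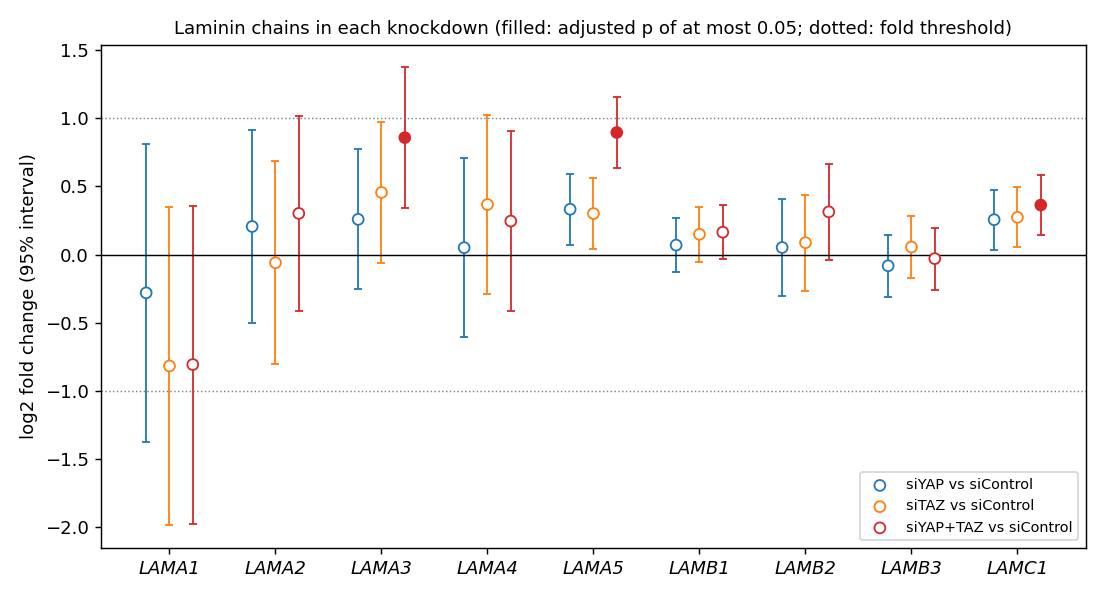
Log2 fold change of each chain against siControl in siYAP (blue), siTAZ (orange) and siYAP+TAZ (red), with the 95% interval from edgeR; filled points have an adjusted p of at most 0.05 and dotted lines mark a log2 fold change of 1 in either direction. Only LAMA3 (0.86), LAMA5 (0.90) and LAMC1 (0.36) in siYAP+TAZ are filled, and the interval of LAMA1 is the widest.

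LAMA5 was the alpha chain with the clearest rise. The gene (ENSG00000130702, chromosome 20, 62307955 to 62367312, minus strand) has 80 exons in its canonical transcript. LAMA5 reached 7359, 7547 and 9401 normalized counts in the siControl libraries and 13959, 14237 and 17039 in those of siYAP+TAZ. All siYAP+TAZ libraries lay above all 12 other libraries, of which the highest was a siTAZ library at 11504. The log2 fold change was 0.90 ± 0.12 (SE), a fold of 1.86 with a 95% interval of 1.55 to 2.23 (edgeR, adjusted p = 9.37e-05). An exact permutation test over libraries gave p = 0.1, the smallest that 3 against 3 can give. Without libraries 26 to 30 the log2 fold change was 0.93 (adjusted p = 3.96e-07), and without siControl library 27 it was 1.02, past both thresholds. ADRM1 and the antisense gene LAMA5-AS1 overlap 2.53% of its exonic bases on the opposite strand, and whether counting used strand is not given in the sources used here.

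LAMA3 (ENSG00000053747, chromosome 18, 23689453 to 23956222, plus strand) encodes the alpha chain of the hemidesmosomal laminin. It is transcribed from separate starts into long and short forms, which counts per gene do not separate. LAMA3 reached 838, 775 and 736 normalized counts in the siControl libraries and 1464, 1669 and 1131 in those of siYAP+TAZ, so the groups did not overlap, though the spread was wide in siYAP+TAZ. The log2 fold change was 0.86 ± 0.24 (SE), a fold of 1.81 with a 95% interval of 1.27 to 2.59 (edgeR, adjusted p = 0.0245). The call depended on which libraries entered the fit. Leaving out siControl library 17, 22 or 27 or siYAP+TAZ library 20 or 25 gave adjusted p = 0.0564 to 0.0877 at log2 fold changes of 0.73 to 0.92. Without siYAP+TAZ library 30 the log2 fold change was 1.01, past both thresholds, and without all of libraries 26 to 30 it was 0.97 (adjusted p = 3.40e-05).

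The remaining alpha chains did not pass the test. LAMA4 (ENSG00000112769, chromosome 6) had 202, 221 and 134 normalized counts in siControl and 257, 264 and 146 in siYAP+TAZ, with overlapping groups and the low value of each group in the run 26 to 30. Its log2 fold change was 0.25 with a 95% interval of -0.42 to 0.91. LAMA1 (ENSG00000101680, chromosome 18) had 76.5, 67.5 and 22.5 in siControl and 47.6, 31.2 and 19.3 in siYAP+TAZ. The groups overlapped through siControl library 27, and the log2 fold change of -0.81 had an interval of -1.98 to 0.36 (edgeR, adjusted p = 0.356). LAMA1 passed as lower in 2 alternative fits, at -0.87 without libraries 26 to 30 (adjusted p = 0.0152) and at -0.74 with the run of library numbers as a block and all libraries kept (adjusted p = 0.0177). For LAMA1, 11.1% of the exonic bases are overlapped by genes on the opposite strand. LAMA2 (ENSG00000196569, chromosome 6) had 16.2, 19.4 and 19.3 in siControl and 22.6, 15.04 and 29.4 in siYAP+TAZ, with an interval of the log2 fold change from -0.42 to 1.02.

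Among the beta chains no call was made. LAMB3 (ENSG00000196878, chromosome 1, 209614870 to 209652425, minus strand) had 19173, 19258 and 20154 normalized counts in siControl and 19387, 20827 and 17166 in siYAP+TAZ. The groups overlapped, and the log2 fold change of -0.03 had a 95% interval of -0.26 to 0.20, and its sign changed when libraries were scaled by their size alone (0.02). LAMB1 (ENSG00000091136, chromosome 7) had 3151, 3039 and 3429 in siControl and 3214, 3780.4 and 3777 in siYAP+TAZ, with an interval of -0.04 to 0.36. LAMB2 (ENSG00000172037, chromosome 3, 49121114 to 49133118, minus strand) had 6271, 6502 and 6679 in siControl and 8061, 8373 and 7738 in siYAP+TAZ. Its groups did not overlap, and its log2 fold change of 0.31 ± 0.16 (SE) had an interval of -0.04 to 0.67 (edgeR, adjusted p = 0.224). The Control libraries of LAMB2, at 10294, 8017 and 5523, spread more than those of siControl, and with only siYAP+TAZ and siControl in the fit LAMB2 passed (adjusted p = 0.00450). It also passed without libraries 26 to 30 (0.38, adjusted p = 0.0257).

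LAMC1 (ENSG00000135862, chromosome 1, 183023420 to 183145592, plus strand), the gamma chain of the set, had 6702, 6368 and 6762 normalized counts in siControl and 8287, 9244 and 7982 in siYAP+TAZ. All siYAP+TAZ libraries were above all siControl libraries. The log2 fold change was 0.36 ± 0.10 (SE), a fold of 1.29 with a 95% interval of 1.104 to 1.498 (edgeR, adjusted p = 0.0204). Without siControl library 17 or 22 or siYAP+TAZ library 25 the adjusted p was 0.0582, 0.0800 and 0.107, and without libraries 26 to 30 the log2 fold change was 0.44 (adjusted p = 0.00146). LAMB4, another beta chain, had 0 to 7.4 normalized counts in all libraries, and LAMC3 was not analysed here.

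**Figure D3:**
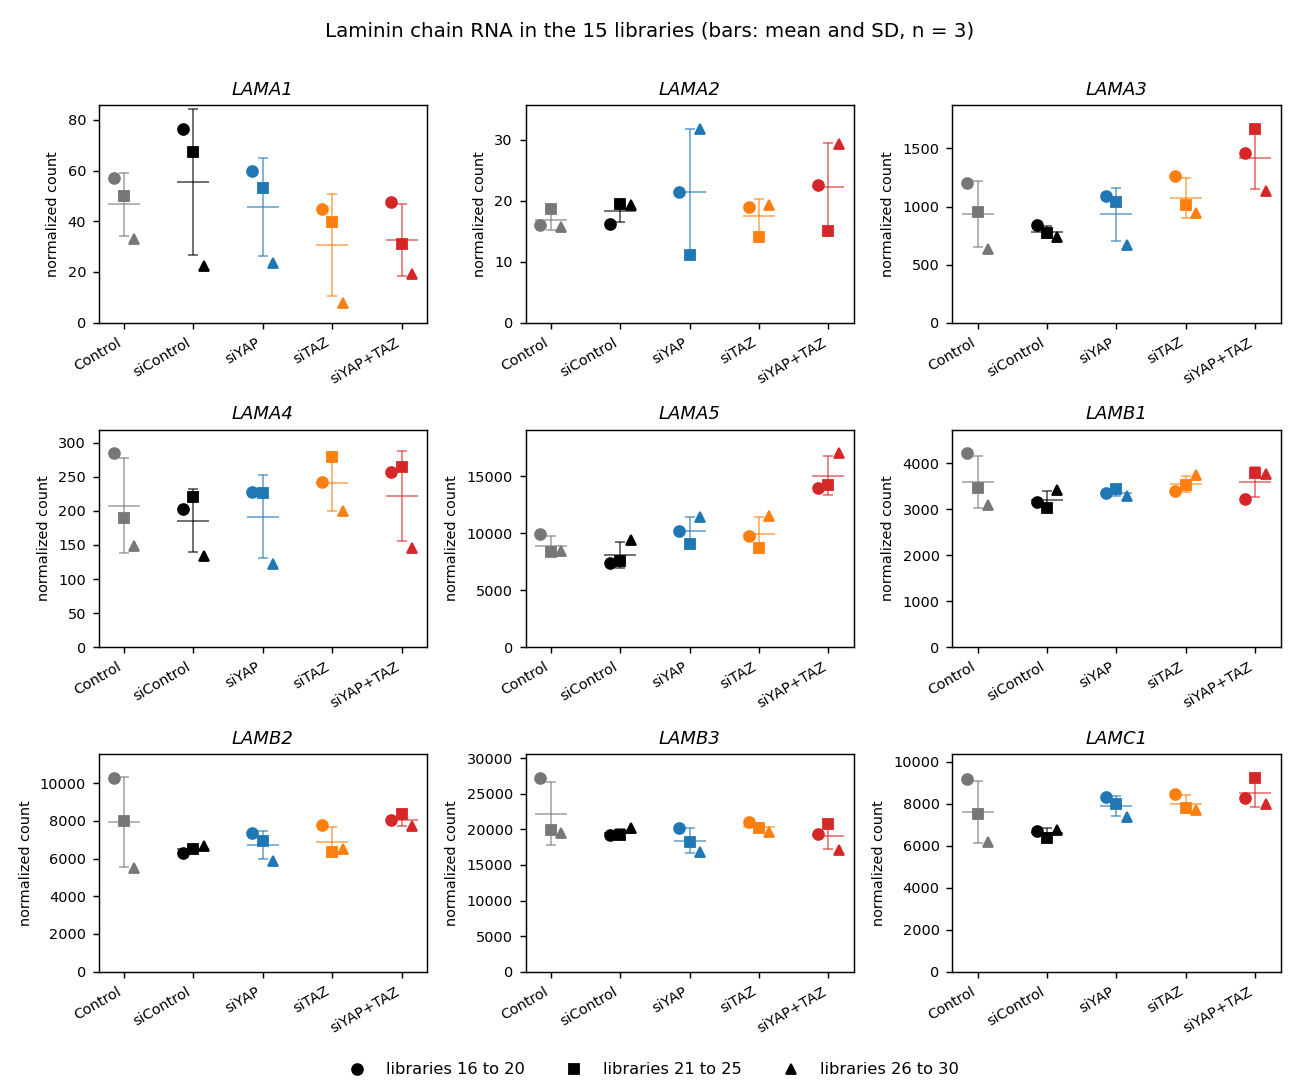
Normalized counts of each chain in the 15 libraries by group, with the mean and SD of 3 libraries; circles, squares and triangles are libraries 16 to 20, 21 to 25 and 26 to 30, and every axis starts at 0. The 3 siYAP+TAZ points of LAMA5 (13959 to 17039) lie above all other points of that panel, and triangles are lowest in every group for LAMA1, LAMA3 and LAMA4.

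After knockdown of YAP1 or WWTR1 alone, no chain passed the adjusted p against siControl with edgeR, DESeq2 or limma-voom. The share of all genes that passed with edgeR was 0.933% in siYAP and 2.03% in siTAZ. LAMA5 had 10167, 9023 and 11413 normalized counts in siYAP and 9739, 8698 and 11504 in siTAZ, most of them above the siControl libraries. Its log2 fold changes were 0.33 ± 0.12 (SE) in siYAP and 0.30 ± 0.12 in siTAZ (edgeR, adjusted p = 0.257 and 0.230). LAMC1 had 8313, 7970 and 7394 in siYAP and 8467, 7807 and 7689 in siTAZ, all above the siControl libraries, at log2 fold changes of 0.26 ± 0.10 and 0.27 ± 0.10 (edgeR, adjusted p = 0.317 and 0.192). Both chains had an unadjusted p under 0.05 in each knockdown, as did 11.9% of all genes in siYAP and 16% in siTAZ. LAMA3 had 1090.2, 1042 and 672 in siYAP and 1264, 1010.2 and 942 in siTAZ, which overlapped siControl in siYAP and not in siTAZ. Higher values in all 3 knockdown libraries were seen for LAMC1 in siYAP (9.65% of all genes) and for LAMC1 and LAMA3 in siTAZ (10.7%). With the block, LAMA5 passed in siYAP (adjusted p = 0.00984), and LAMA1, as lower, and LAMA3, LAMA5 and LAMC1, as higher, passed in siTAZ (0.0201, 0.0456, 0.0141 and 0.0394), where 6.1% and 10.3% of all genes passed. Without libraries 26 to 30, LAMA5 passed in siYAP (adjusted p = 0.0361) and LAMA3, LAMA5 and LAMC1 passed in siTAZ (0.0251, 0.0410 and 0.0394), where 1.18% and 4.68% of all genes passed.

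LAMA5 also differed between the co-knockdown and each knockdown alone. It was higher in siYAP+TAZ than in siYAP by 0.56 ± 0.12 (SE) on the log2 scale (edgeR, adjusted p = 0.0132) and higher than in siTAZ by 0.60 ± 0.12 (adjusted p = 0.00939). It was the only chain to pass in either comparison, in which 5.13% and 5.44% of all genes passed. The adjusted p was 0.0578, 0.0760 and 0.0672 without siYAP library 18, siYAP library 23 or siYAP+TAZ library 30 in the former comparison, and 0.0582 without siTAZ library 24 in the latter. LAMA3 was higher in all 3 siYAP+TAZ libraries than in siYAP, as were LAMA5, LAMB2 and 13% of all genes. The LAMA3 difference was 0.60 ± 0.23 on the log2 scale (edgeR, adjusted p = 0.180). LAMC1 differed from siYAP and siTAZ by 0.11 and 0.09 with intervals of -0.11 to 0.33 and -0.13 to 0.31. With the run of library numbers as a block, LAMA3 passed in both comparisons (adjusted p = 0.00514 and 0.0495), where 14.6% and 14.8% of all genes passed. Residual WWTR1 RNA averaged 1180 normalized counts in siYAP+TAZ and 534 in siTAZ, without overlap. YAP1 averaged 2079 in siYAP+TAZ and 1513 in siYAP, with overlapping libraries. The co-knockdown and the single knockdowns were thus compared at unequal residual RNA of the targets. An interaction term asked whether, at these levels, the co-knockdown went beyond both separate log2 fold changes added up. It was 0.26 for LAMA5 with a 95% interval of -0.10 to 0.63 (edgeR, adjusted p = 0.917), and no chain passed, with 0 at an unadjusted p under 0.05 (5.85% of all genes) and 0 by DESeq2 and limma-voom. Of all genes, 0.0106% passed this test. siYAP and siTAZ did not differ in any chain at an adjusted p of at most 0.05 (0.642% of all genes did), again with 0 chains at an unadjusted p under 0.05 (13.7% of all genes) and 0 by DESeq2 and limma-voom.

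Transfection with the control pool was compared in the same way. No chain differed between siControl and Control, as for all genes (0%), with 0 chains at an unadjusted p under 0.05 (2.11% of all genes) and 0 by DESeq2 and limma-voom. The median log2 fold change of the chains was -0.17, against 0.0030 over all genes, and the sign was not the same in every run of library numbers. LAMB2, for example, differed by -0.71, -0.30 and 0.27 on the log2 CPM scale, and LAMA3 by -0.52, -0.30 and 0.21. LAMA5 had 9907, 8335 and 8474 in Control, which overlapped siControl and lay below every siYAP+TAZ library. Against Control, LAMA5 remained higher in siYAP+TAZ by 0.76 ± 0.12 (SE) on the log2 scale (edgeR, adjusted p = 3.58e-04), the only chain to pass where 19.4% of all genes did. LAMA3 had 1203, 955 and 636 in Control and differed by 0.60 ± 0.24 (adjusted p = 0.0973), and LAMC1, at 9162, 7500.5 and 6165 in Control, by 0.16 ± 0.10 (adjusted p = 0.322). LAMA3 passed this comparison with DESeq2 and limma-voom. It also passed with the block of library runs, where 29.4% of all genes passed. Without Control library 16 both LAMA3 and LAMC1 passed. The comparisons with siControl share its 3 libraries, and the 2 sets of values against siControl and Control share the siYAP+TAZ libraries.

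Differences between libraries with neighbouring numbers were set side by side, since a run of 5 numbers holds every group once but is not stated to be a set. For siYAP+TAZ minus siControl, LAMA5 differed by 0.92, 0.92 and 0.86 on the log2 CPM scale in libraries 16 to 20, 21 to 25 and 26 to 30. LAMA3 differed by 0.80, 1.11 and 0.62, and LAMC1 by 0.31, 0.54 and 0.24. LAMB2 differed by 0.36, 0.36 and 0.21, LAMA4 by 0.34, 0.26 and 0.12, and LAMB1 by 0.03, 0.31 and 0.14. These 6 chains were thus higher in each of the 3 runs, as were 27.6% of all genes. LAMA1 was lower in each, at -0.66, -1.07 and -0.21, as were 28.7% of all genes. LAMB3 differed by 0.02, 0.11 and -0.23, with no common sign. In siTAZ, 5 chains (LAMA3, LAMA4, LAMA5, LAMB1 and LAMC1) were higher in each of the 3 runs, as were 22.0% of all genes, and LAMA1 was lower in each, as were 21.3% of all genes. In siYAP, LAMA5 and LAMC1 were higher in each (20.2% of all genes), and the LAMA3 difference turned from 0.38 and 0.43 to -0.13 in the run 26 to 30.

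**Figure D4:**
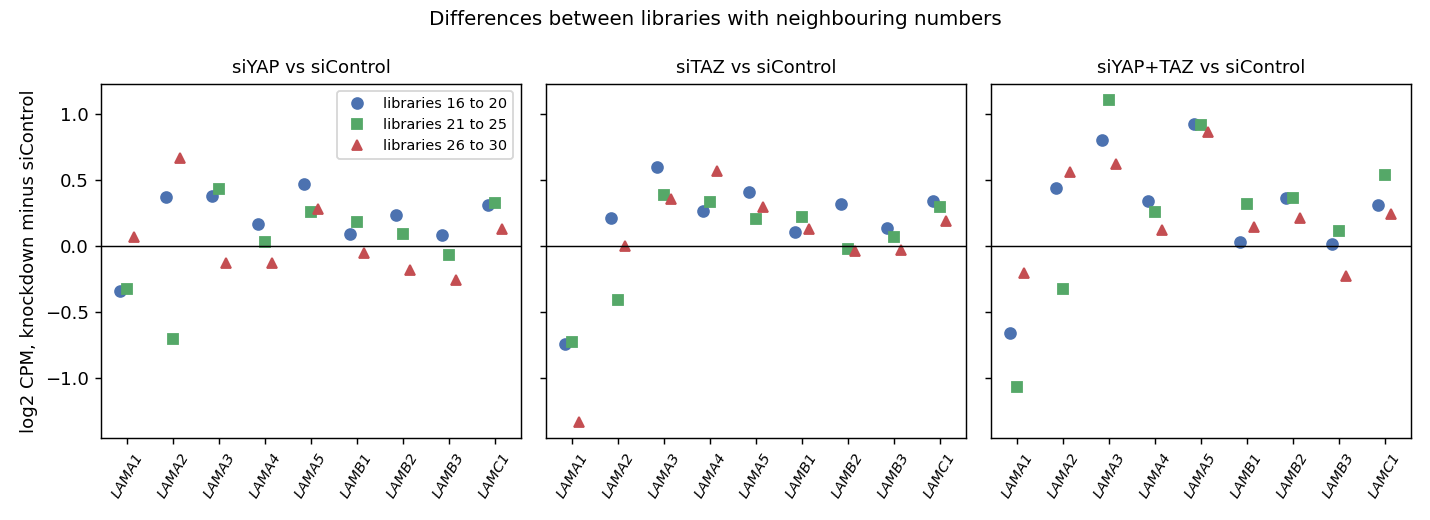
Log2 CPM of the knockdown library minus that of the siControl library within libraries 16 to 20 (circles), 21 to 25 (squares) and 26 to 30 (triangles), for siYAP, siTAZ and siYAP+TAZ. In siYAP+TAZ the 3 LAMA5 points lie together at 0.86 to 0.92, and those of LAMA1 and LAMA2 are the most spread.

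Because a trimer takes 1 chain of each class, the makeup within the alpha and the beta chains was compared as shares of counts per kb, which do not depend on the scaling of a library. By all annotated exons, LAMA5 was 88.3% ± 2.46 (SD, n = 3) of alpha chain RNA in siControl and 89.7% ± 2.73 in siYAP+TAZ (exact permutation test, two-sided, p = 0.5). LAMA3 was 8.53% ± 1.37 and 8.46% ± 2.12 (exact permutation test, p = 1). The groups overlapped for both chains. Within the runs of library numbers the LAMA5 share was nonetheless higher in siYAP+TAZ than in siControl in each of the 3, at 88.5% and 86.5% in libraries 16 to 20, 87.7% and 87.3% in 21 to 25, and 92.8% and 91.1% in 26 to 30, and the overlap came from siControl library 27. The minor chains had lower mean shares in siYAP+TAZ, with LAMA4 at 2.48% and 1.61% (exact permutation test, p = 0.3), LAMA1 at 0.571% and 0.180% (p = 0.2) and LAMA2 at 0.109% and 0.0714% (p = 0.1, without overlap), and each of these 3 shares was lower within every run. Since LAMA5 makes up most of the alpha sum and rose, any chain that rises less loses share. The log2 fold changes of LAMA4, LAMA2 and LAMA1 RNA were 0.25, 0.30 and -0.81. Among the beta chains, LAMB3 was 79.0% ± 0.182 in siControl and 75.0% ± 1.29 in siYAP+TAZ, and LAMB2 was 17.8% ± 0.247 and 21.5% ± 0.903. Neither pair of groups overlapped, and each exact permutation test gave p = 0.1, the smallest that 3 against 3 can give, so this design cannot reach p = 0.05. By the longest coding transcript LAMB3 went from 72.7% to 68.3% and LAMB2 from 18.2% to 21.8%. In siYAP the LAMB3 share was lower by 1.62 percentage points (exact p = 0.1), and in siTAZ by 0.457 (exact p = 0.7). In Control the LAMB3 share ranged from 76.0% to 81.2%, across the whole siControl range. The LAMB2 share overlapped between Control and siYAP+TAZ, with Control library 21 at 20.68% and siYAP+TAZ library 25 at 20.66%.

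**Figure D5:**
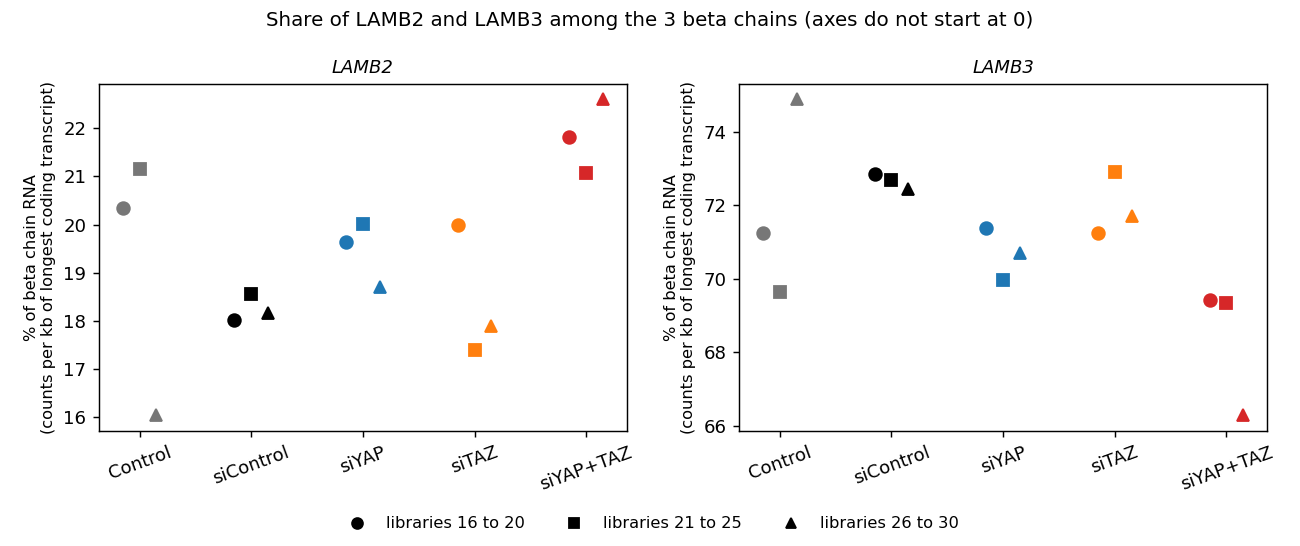
Share of LAMB2 (left) and LAMB3 (right) in the RNA of the 3 beta chains, in percent of counts per kb of the longest coding transcript, for each library by group; the axes do not start at 0. The siYAP+TAZ libraries have the lowest LAMB3 shares (66.3% to 69.4%), below the siControl libraries (72.4% to 72.9%). The Control libraries spread from 69.6% to 74.9% for LAMB3. For LAMB2, Control library 21 at 21.17% lies above siYAP+TAZ library 25 at 21.08%.

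Other parts of the basement membrane were read from lists of named genes. Of 18 measured basement membrane partners, 5 rose in siYAP+TAZ against siControl, none fell and 13 did not pass, with a median log2 fold change of 0.22. Of all genes, 9.97% rose and 18.4% passed in either direction. COL15A1, a multiplexin collagen at basement membranes, had 66.3, 59.2 and 31.1 normalized counts in siControl and 126, 141 and 159 in siYAP+TAZ (log2 fold change 1.43, edgeR adjusted p = 2.14e-04), and was the only gene of the list past both thresholds. COL17A1, the transmembrane collagen of hemidesmosomes, rose by 0.82 (adjusted p = 2.27e-05). COL18A1, the other multiplexin, rose by 0.78 (adjusted p = 3.34e-05), and COL7A1, which forms anchoring fibrils, by 0.53 (adjusted p = 0.00226). COL4A5, a chain of the type IV network, rose by 0.95 (adjusted p = 0.00952), whereas the main network chains COL4A1 and COL4A2 were at -0.11 and -0.10 (adjusted p = 0.840 and 0.740). The linkers HSPG2 and AGRN were at 0.18 and 0.11 (adjusted p = 0.667 and 0.444), and NID1 and FBLN2 were not analysed here.

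Of 13 laminin receptors and their partners, 3 rose, 1 fell and 9 did not pass, with a median log2 fold change of 0.23, against 18.4% of all genes that passed in either direction. ITGA6, the alpha subunit of laminin-binding integrins, had 6867, 6491 and 6875 in siControl and 8630.3, 9917 and 8128.5 in siYAP+TAZ, a log2 fold change of 0.40 (edgeR, adjusted p = 0.00281). BCAM, a receptor for LAMA5-containing laminins, had 515, 508 and 604 in siControl and 870.4, 826 and 706 in siYAP+TAZ, a log2 fold change of 0.56 (adjusted p = 0.00359). CD151, the tetraspanin partner of these integrins, rose by 0.25 (adjusted p = 0.0225), and RPSA, a ribosomal protein also described as a laminin-binding protein, fell by 0.28 (adjusted p = 0.0184). ITGB4, the beta subunit that pairs with ITGA6, was at 0.43 (adjusted p = 0.0861), ITGA3 at -0.01 and DAG1, dystroglycan, at 0.26 (adjusted p = 0.0658). Of 13 genes that build the laminin-binding sugar of dystroglycan, B4GAT1, a glucuronyltransferase, rose by 0.40 (adjusted p = 0.0110), B3GALNT2, an N-acetylgalactosaminyltransferase, fell by 0.45 (adjusted p = 0.00202) and 11 did not pass, beside the same 18.4% of all genes. In siYAP, COL17A1 rose by 0.60 (adjusted p = 0.00762), 1 of the 18 basement membrane partners, and no receptor passed, beside 0.933% of all genes. In siTAZ, COL18A1 rose by 0.40 (adjusted p = 0.0457) and, among the receptors and their partners, SGCB, a sarcoglycan, by 0.33 (adjusted p = 0.0468), beside 2.03% of all genes.

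Across the 15 libraries, the genes whose log2 CPM followed a chain most closely are given as a description, since all points share their libraries and groups. Among the 13209 genes that averaged 20 or more normalized counts, LAMA5 was most like KCNN4, a calcium-activated potassium channel (Pearson r = 0.976, Spearman rho = 0.950). LAMA3 was most like the Notch ligand JAG1 (r = 0.960, rho = 0.939), and LAMC1 was most like ZBTB1, a zinc finger protein (r = 0.907, rho = 0.907). The closest genes were CLSTN1 for LAMA4 (r = 0.945), PLOD3, a collagen lysyl hydroxylase, for LAMB3 (r = 0.930, rho = 0.689), the cytokine IL11 for LAMA1 (r = 0.914), LTBP4 for LAMB2 (r = 0.913) and APLP2 for LAMB1 (r = 0.843). Between the chains, r was highest for LAMA3 with LAMC1 at 0.879 and for LAMB2 with LAMC1 at 0.796. It was lowest for LAMA2 with LAMA4 at -0.557 and for LAMA1 with LAMA5 at -0.526. LAMA5 and LAMA4 followed different courses over the libraries (r = -0.07).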

How the data were processed

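RNA was measured in 15 libraries of MDA-MB-231 cells, grouped by sample name. The authors made libraries from polyadenylated RNA, trimmed the single reads with cutadapt, aligned them to GRCh38 with STAR (2.4.2a per the labels) and deposited STAR's raw counts per gene, which were used here. The normalized values, rlog values, fold changes and p-values that stand beside them in the table were not used. All 18858 genes reached 5 reads in at least 1 library. After TMM scaling, edgeR 4.0.16 (R 4.3.3) was run with the robust quasi-likelihood method over all 15 libraries, 1 coefficient per group, no block, with Benjamini-Hochberg adjustment over all genes. Calls used an adjusted p of at most 0.05, alone or together with a log2 fold change of 1 or more in either direction. Normalized counts bring every library to the mean TMM-scaled library size, and log2 CPM used a prior count of 2. Shares were compared by exact permutation tests. The edgeR test was checked on simulated counts with 200 changed genes. Gene positions, exons and overlaps came from GENCODE on GRCh38. All replicate pairs differed by more than sampling noise (chi-square per degree of freedom of at least 6.10).

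The chains and the gene lists were chosen with earlier results of these data known. Named genes were the chains, the siRNA targets, the list genes past both thresholds in siYAP+TAZ or, where fewer than 4, those of smallest p up to 4, the markers, and the gene most correlated with each chain with a mean of at least 20. HSPG2, AGRN, COL4A1, COL4A2, COL4A5, ITGB4, ITGA3, DAG1 and SGCB were named in addition after their values were seen. Alternatives were DESeq2 1.42.0, limma-voom (limma 3.58.1), other scalings and filters, fits without robustness or with only the groups compared, a block of library runs, each library left out and, chosen after seeing the data, all of libraries 26 to 30 left out. A gene at 20 counts carries a large counting error at these depths of 18696737 to 30107312 counts.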

Additional observations from a re-analysis of the deposited data

How the results depend on the processing

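The LAMA5 difference between siYAP+TAZ and siControl passed the adjusted p in all 16 settings tried, at log2 fold changes of 0.81 to 1.02. With 1 library left out, the chains past the adjusted p numbered 1 to 3 in siYAP+TAZ against siControl and 0 to 1 at both thresholds (LAMA5 without siControl replicate 27, LAMA3 without siYAP+TAZ replicate 30). They numbered 0 to 1 against siYAP, 0 to 1 against siTAZ and 1 to 3 against Control. The share of all genes that passed in these leave-one-out fits was not recorded. Without libraries 26 to 30, an exclusion chosen after seeing the data that leaves 2 libraries per group, the count was 5 in siYAP+TAZ (LAMA1, LAMA3, LAMA5, LAMB2 and LAMC1), 1 in siYAP, 3 in siTAZ, and 2 (LAMA3 and LAMA5) for siYAP+TAZ against each of siYAP, siTAZ and Control. Of all genes, 19.9%, 1.18%, 4.68%, 7.76%, 7.51% and 22.2% passed in these fits, in that order. No replicate number is shared between groups. With a replicate block of the runs of consecutive library numbers, which are not stated to be the study's sets, the count was 4 in siYAP+TAZ (LAMA1 as lower, LAMA3, LAMA5 and LAMC1), 1 in siYAP (LAMA5), 4 in siTAZ (LAMA1, LAMA3, LAMA5 and LAMC1), and 2 (LAMA3 and LAMA5) for siYAP+TAZ against siYAP, siTAZ and Control, where 28.6%, 6.1%, 10.3%, 14.6%, 14.8% and 29.4% of all genes passed. Deviations from the group means over genes correlated above 0.1 in 26 of 30 pairs of libraries of the same run (median r 0.391) and in 16 of 60 pairs of different runs (median r -0.315). Because group means were subtracted, positive same-run pairs lower the pairs of different runs, so the latter value is no separate observation. DESeq2, limma-voom and the fit without robust estimation also gave 2 against Control. The cause of these changes was not tested.

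With the longest coding transcript as length, the share differences became -0.077 percentage points for LAMA2 in siYAP+TAZ and -0.054 in siTAZ, and 0.74, 0.79 and 0.54 for LAMB1 in siYAP+TAZ, siYAP and siTAZ. Signs turned only in chains that were not called. LAMB3 in siYAP+TAZ against siControl came to 0.016 by library size alone and 0.079 without libraries 26 to 30. The latter exclusion gave 0.017 for LAMB3 and -0.10 for LAMA2 in siYAP, and -0.12 for LAMA1 and 0.0081 for LAMA4 in siYAP+TAZ against siTAZ. With 1 library left out, log2 fold changes against siControl ranged in siYAP from -0.64 to 0.031 (LAMA1), -0.16 to 0.54 (LAMA2), -0.13 to 0.28 (LAMA4) and -0.019 to 0.14 (LAMB2), in siTAZ from -0.15 to 0.064 (LAMA2) and -0.012 to 0.14 (LAMB2), and in siYAP+TAZ from -0.091 to 0.049 (LAMB3). In siYAP+TAZ against siYAP they ranged from -0.23 to 0.46 (LAMA2), -0.035 to 0.43 (LAMA4) and -0.021 to 0.12 (LAMB3), and against siTAZ from -0.40 to 0.40 (LAMA1), -0.26 to 0.12 (LAMA4) and -0.018 to 0.089 (LAMB1). Depth limits LAMA1 and LAMA2 most, at 6 to 90 and 12 to 32 raw counts.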
